A study of Gallus gallus with 5 samples.

Results

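The proteasome subunit genes of regenerating chicken feather follicles were described across 5 RNA-seq libraries. Members were taken by name alone, as every row of the gene table whose name starts with PSM, 1 letter from A to G and a number. This gave 37 of 17108 rows. One of them, PSMC3IP, is named for binding an ATPase subunit and encodes a meiotic recombination factor, so it is given apart from the other 36. Those 36 rows were 7 alpha subunits and 5 beta subunits of the core, 5 ATPases, 3 other base subunits, 7 lid subunits, 3 activator or inhibitor genes and 6 assembly chaperones.

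Flight feather follicles of the wing were plucked so that they regrew, and lentiviral vectors carried the treatments, pLVX-Zsgreen for overexpression and pLL3.7 for knockdown. The groups were wild type with 2 libraries, titled T4_repeat1 and T4_repeat2, and 1 library each of Wnt5a-over expression, knockdown of lnc7831 and knockdown of lnc3500. Values of these 3 treated libraries are given in that order unless a sentence names them. Each library held the RNA of 5 pooled follicles, with no bird, strain, age or day of regrowth given, and no group is labelled as an empty vector. The tag T4, which the labels leave unexplained, stands in the wild-type titles alone, so its meaning and the treatment cannot be told apart. The source name is dermal papilla and the tissue is feather follicle. Markers of both compartments were present. Over the 10 dermal papilla markers found of 12, the summed FPKM (read fragments per unit of transcript length and of sequencing depth) ran from 344 to 1037. Over the 11 epidermal markers it ran from 1675 to 7916, with KRT5 listed at 0 throughout.

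The 26S proteasome degrades proteins that carry a ubiquitin chain. Its barrel-shaped core is built of stacked rings of alpha and beta subunits, and some of the beta subunits are proteases. A regulatory particle caps the core. Its base holds the ATPase ring that unfolds the substrate, together with ubiquitin receptors, and its lid removes the chain. Other caps (PA28, PA200) open the core without ubiquitin, and chaperones guide assembly. In mammals the transcription factor NFE2L1 raises the subunit genes together when proteasome activity is low. Birds are known to lack the interferon-induced beta subunits of mammals.

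FPKM are scaled within a library, and as deposited most genes stood higher in all 3 treated libraries. The median gene lay 0.54, 0.64 and 0.56 log2 units above wild type. For this reason a difference here is one of log2(median-centred FPKM + 1), so that 0 is the position of the median gene. Scaling to equal total FPKM instead put the median gene at 0.14, -0.42 and -0.39. Such totals can rest heavily on 1 gene. The highest gene had 200415 of 986272 FPKM and 208769 of 860352 in the wild-type libraries. In the treated libraries the highest gene had 107501 of 1256067, 466058 of 2097886 and 633633 of 1943371 FPKM. Levels are given as deposited FPKM. The test, over the 11031 genes that averaged 1 FPKM or more, was limma with Benjamini-Hochberg adjustment, in which the spread of the 2 wild-type libraries stands for every group. Nothing says that these came from separate birds, so its p-values may measure technical spread. Each treated group is 1 library, so none of its differences was checked in a replicate. The library labelled Wnt5a overexpression held 75.7 FPKM of WNT5A itself, against 29.7 and 64.3 in wild type and 162 under lnc7831 knockdown. Its difference was 0.19 (SE 0.59) after centring, so that library is called by its label only. Neither knockdown was checked here.

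In wild-type follicles the proteasome genes were among the more abundant transcripts. Of the 35 tested, 33 stood at or above the 75th percentile of wild-type FPKM over all genes tested, and 19 at or above the 90th. The exceptions were the chaperone PSMD5 and the PA200 activator PSME4, at percentiles 64.6 and 34.2. The median proteasome gene above 0 had 69.3 and 59.5 FPKM in the wild-type libraries, against 8.70 and 9.60 for the median gene. It had 102, 110 and 114 FPKM in the treated libraries, so these genes shared in the upward shift. PSMA5, an alpha subunit of every proteasome, was listed at 0 in all 5 libraries and was not tested. EIF3K, which encodes a translation initiation subunit, was listed at 0 in all 5 as well, and such an entry can be a failed estimate. Subunit names that no row carried (PSMB5, PSMB6, PSMC4 and PSMD8 among them) were not analysed here.

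**Figure D1:**
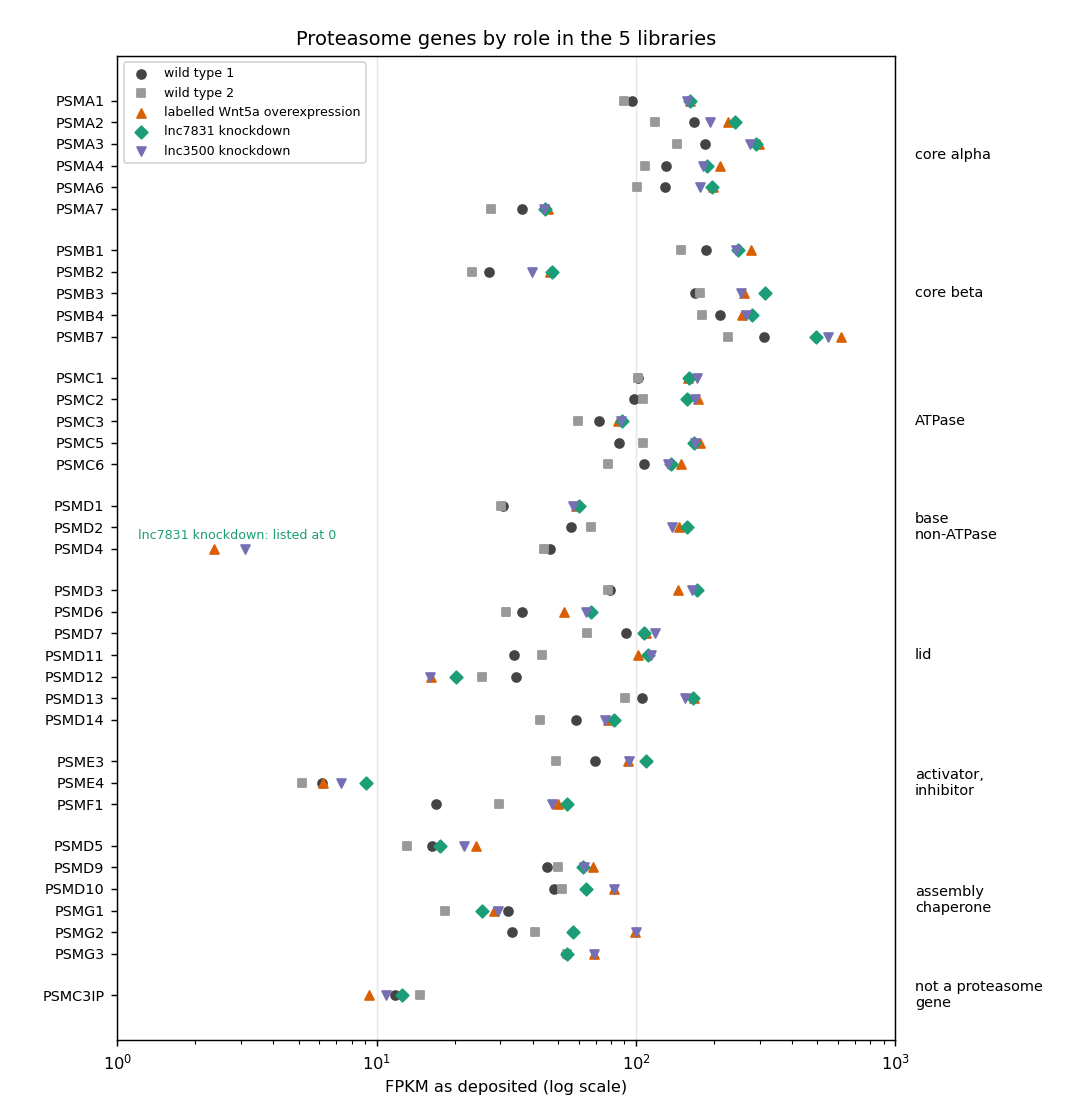
Deposited FPKM (log axis) of the 35 tested proteasome genes and PSMC3IP, 1 symbol per library with a value above 0, grouped by role. PSMB7 of the core lies highest and PSME4 lowest in wild type, and PSMD4 drops from 46.8 and 44.2 FPKM in wild type to 2.37 and 3.12 in the 2 treated libraries that list it above 0.

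The highest levels of the complex were those of core genes, led by PSMB7 in every library. PSMB7 (ENSGALG00000001103), which encodes the subunit with trypsin-like activity, had 311 and 226 FPKM in wild type. Its treated levels were 617, 496 and 548 FPKM. All 3 treated libraries lay above both wild types as deposited. After centring its difference from wild type was 0.62 (SE 0.46), 0.19 and 0.41, none of them called by limma. In lnc7831 knockdown the centred value lay between the 2 wild types. Scaled to equal totals the knockdowns were at -0.28, below both wild types, and -0.029, within their range. PSMB4, a structural beta subunit, came next in wild type at 210 and 180 FPKM. It had 256, 281 and 265 FPKM in the treated libraries. After centring it was below both wild types in each of them, by 0.18 to 0.21 from their mean.

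The lowest core genes were PSMB2 and PSMA7. PSMB2, a beta subunit, had 27.0 and 23.4 FPKM in wild type and 46.6, 47.4 and 39.6 in the treated libraries. The alpha subunit PSMA7 had 36.4 and 27.6 FPKM in wild type and 46.0, 44.5 and 44.2 in the treated libraries. The highest alpha subunit was PSMA3, with 184 and 144 FPKM in wild type and 299, 290 and 275 in the treated libraries. The other members, PSMA1, PSMA2, PSMA4, PSMA6, PSMB1 and PSMB3, had wild-type means between 92.8 and 172 FPKM. Subunits that enter the particle in equal number thus had transcript levels up to 11.5-fold apart in wild-type library 1 and 13.8-fold apart in lnc3500 knockdown. This spread was wider among the 5 beta subunits (SD of log2 FPKM 1.29 to 1.41 over the libraries) than among the 6 alpha subunits above 0 (0.85 to 0.96). Each ring held 1 gene far below its others, PSMB2 and PSMA7, so the contrast leans on these. In wild-type library 1 the other beta subunits had 169 to 311 FPKM. The other alpha subunits above 0 had 96.1 to 184 FPKM there.

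The ATPase genes, which form the unfolding ring, were the most alike in level. In wild-type library 1 they spanned 71.7 FPKM for PSMC3 to 108 for PSMC6, a 1.50-fold range, and in the other libraries the range was 1.79-fold to 2.07-fold. PSMC1 had 101 and 102 FPKM in wild type and 159, 160 and 171 in the treated libraries. PSMC2, which had the highest wild-type mean, had 98.4 and 106 FPKM in wild type and 173, 158 and 169 in the treated ones. PSMC3, lowest in every library, had 71.7 and 59.5 FPKM in wild type and 85.5, 88.4 and 87.4 in the treated libraries. PSMC3 alone of the 5 was below both wild types after centring in all 3 treated libraries, at -0.21, -0.28 and -0.22, though above both as deposited. The differences of all 5 ATPases from wild type lay between -0.28 and 0.28, with standard errors of 0.38 to 0.44 in limma. The ratio of the core median to the ATPase median was 1.70 and 1.16 in wild type and 1.15 to 1.52 in the treated libraries, so the groups overlapped.

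The 3 base genes outside the ATPase ring did not behave alike. PSMD2 (ENSGALG00000006294), which encodes the docking subunit for substrate shuttles, had 55.9 and 66.8 FPKM in wild type. Its treated levels were 146, 158 and 137 FPKM. Its centred differences were 0.65 (SE 0.38), 0.64 and 0.52, above both wild types in each library but with adjusted p = 1 in limma. With equal total FPKM it lay within the wild-type range in both knockdowns, at 0.18 and 0.089. PSMD1, the other large scaffold of the base, had 30.7 and 30.1 FPKM in wild type and 58.8, 60.0 and 57.3 in the treated libraries. It was above both wild types after centring too, at 0.34, 0.26 and 0.27. Scaled to equal total FPKM, PSMD1 was below both wild types in both knockdowns instead, at -0.20 and -0.16. The ratio of PSMD2 to PSMD1 within a library was 1.82 and 2.22 in wild type and 2.40 to 2.63 in the treated libraries.

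PSMD4 (ENSGALG00000028505), which encodes the ubiquitin receptor Rpn10, had the largest difference of all members in each comparison with wild type. Wild-type follicles had 46.8 and 44.2 FPKM of it. The library labelled for Wnt5a had 2.37 FPKM and lnc3500 knockdown 3.12, while under lnc7831 knockdown the gene was listed at 0. The groups did not overlap, and the wild types differed from each other by only 0.14 after centring. The centred differences were -4.32 (SE 0.31) in the library labelled for Wnt5a and -4.06 (SE 0.31) under lnc3500 knockdown. No fold is given for the library at 0. Limma did not call the gene, with adjusted p of 0.258, 0.162 and 0.300. Over the 8 alternative settings with a test, the adjusted p ran from 0.0752 to 0.496, from 0.0342 to 0.256 and from 0.0969 to 0.606. The lowest of these, for lnc7831 knockdown with equal upper quartiles, was the one setting tried at which limma called a member. Of all genes tested, 4 had 20 FPKM or more in both wild types and were listed at 0 in all 3 treated libraries. PSMD4 was not among them, being above 0 in the library labelled for Wnt5a and under lnc3500 knockdown. FPKM do not show whether the reads of wild-type and treated libraries were handled alike, and the part of that in the PSMD4 and PSMD12 values was not tested.

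Among lid genes PSMD11 and PSMD12 stood at opposite ends. PSMD11 (ENSGALG00000024112), a scaffold subunit of the lid, had 34.0 and 43.6 FPKM in wild type. Its treated levels were 102, 111 and 114 FPKM. Every treated library was above both wild types after centring. The differences from their mean were 0.79 (SE 0.39), 0.80 and 0.92, none of them called by limma. With equal total FPKM the value under lnc7831 knockdown was only slightly above the higher wild type. PSMD12 (ENSGALG00000003700), another scaffold subunit of the lid, had 34.6 and 25.4 FPKM in wild type and 16.2, 20.1 and 16.0 in the treated libraries. Those values lay below both wild types even as deposited, against the upward shift of most genes. Its centred differences were -1.41 (SE 0.39), -1.22 and -1.46, with adjusted p = 1 in limma. The ratio of PSMD11 to PSMD12 was 0.982 and 1.72 in the wild-type libraries, and 6.29, 5.52 and 7.12 in the treated ones.

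**Figure D2:**
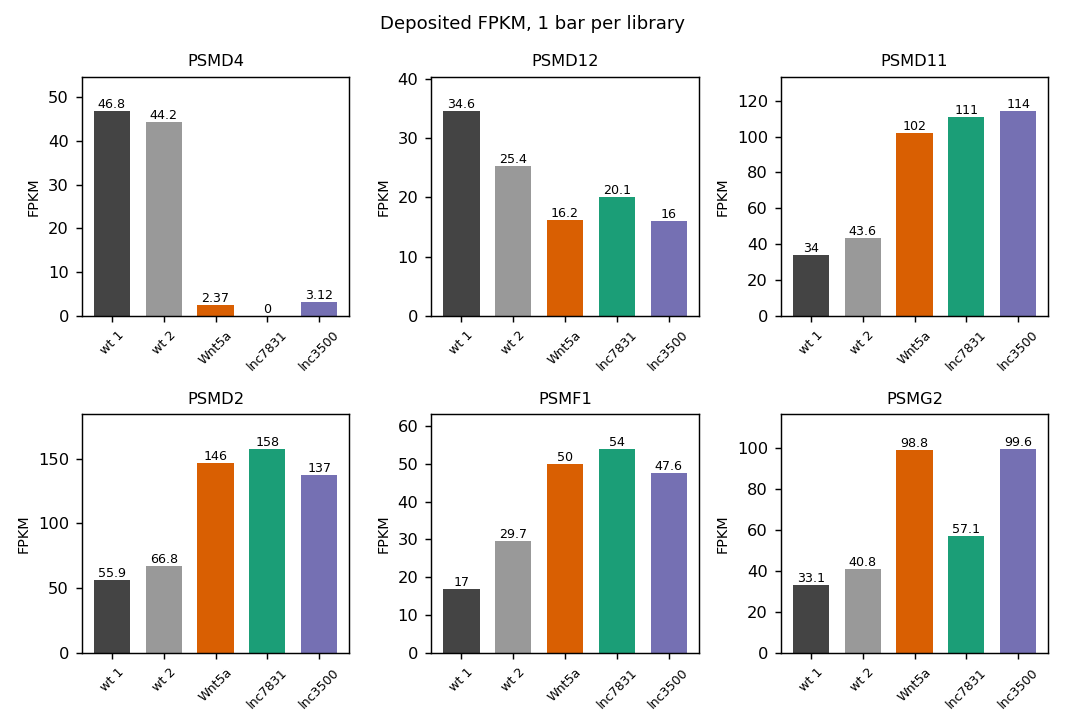
Deposited FPKM of PSMD4, PSMD12, PSMD11, PSMD2, PSMF1 and PSMG2, with 1 bar for each library (wt, wild type) and no error bars because each bar is 1 library. PSMD4 and PSMD12 are lower in the 3 treated libraries than in both wild types, and the other 4 genes are higher than both, with PSMG2 at 57.1 in lnc7831 knockdown and at 98.8 and 99.6 in the other treated libraries.

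The remaining lid genes stayed nearer to the median gene. PSMD14, which encodes the deubiquitinase of the lid, had 58.8 and 42.6 FPKM in wild type and 78.2, 82.4 and 75.9 in the treated libraries. Its centred differences were between -0.04 and 0.04, inside the gap of 0.52 between the wild types. PSMD13, the highest lid gene in wild type, had 105 and 90.5 FPKM there and 167, 166 and 155 in the treated libraries. PSMD3, a scaffold of the lid, had 79.2 and 77.7 FPKM in wild type and 146, 172 and 164 in the treated libraries. After centring it was above both wild types in each, at 0.29, 0.41 and 0.42 from their mean. PSMD3 with equal totals was at -0.054 and -0.016 in the knockdowns. PSMD6 and PSMD7, also lid subunits, had centred differences between -0.23 and 0.28.

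Activator and inhibitor genes were lower than most core genes. PSME3, which encodes PA28 gamma of the nucleus, had 69.3 and 49.3 FPKM in wild type and 92.8, 109 and 93.8 in the treated libraries. After centring it lay between the wild types in all 3. PSME4, which encodes PA200, had 6.16 and 5.16 FPKM in wild type and 6.19, 9.09 and 7.28 in the treated libraries. In the library labelled for Wnt5a its centred difference was -0.40 (SE 0.33), but as deposited it was 0.11. PSMF1 (ENSGALG00000000259), which encodes PI31, first described as an inhibitor of the core, had 17.0 and 29.7 FPKM in wild type. It had 50.0, 54.0 and 47.6 FPKM in the treated libraries. Those levels exceeded both wild types, and the centred differences were 0.53 (SE 0.47), 0.53 and 0.43. The wild types themselves were 0.72 apart for this gene, and with equal total FPKM it lay within their range in both knockdowns.

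Among the chaperones, lnc7831 knockdown stood apart from the other treated libraries. PSMG2 (ENSGALG00000013863), which pairs with PSMG1 to build the alpha ring, had 33.1 and 40.8 FPKM in wild type. It had 98.8 FPKM in the library labelled for Wnt5a and 99.6 under lnc3500 knockdown, but 57.1 under lnc7831 knockdown. Its centred differences from wild type were 0.81 (SE 0.37), -0.079 and 0.79 in the usual order. With equal total FPKM the value under lnc3500 knockdown was only slightly above the higher wild type. PSMG1 had 32.1 and 18.3 FPKM in wild type and 28.4, 25.4 and 29.3 in the treated libraries, within the wild-type range as deposited. PSMG3, which works with PSMG4 on the alpha ring, had 53.5 and 54.1 FPKM in wild type and 68.8, 54.2 and 68.6 in the treated ones. Under lnc7831 knockdown its centred difference was -0.69 (SE 0.36), while as deposited it was 0.011. PSMD5, a chaperone of the base and the lowest of the 6, had 16.4 and 13.1 FPKM in wild type and 24.1, 17.5 and 21.6 in the treated libraries. The other base chaperones, PSMD9 and PSMD10, had 45.4 and 50.1 and 48.1 and 51.8 FPKM in wild type, and between 62.7 and 82.5 FPKM in the treated libraries.

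Compared directly, all 6 chaperones were lower under lnc7831 than under lnc3500 knockdown after centring. So were 49.3% of all genes tested and 57.5% of those averaging 20 FPKM or more. The median difference of the 6 was -0.38, against 0.003 for all genes tested. As deposited, with equal totals and with equal upper quartiles the 6 were lower as well, with medians of -0.31, -0.41 and -0.34. PSMD9 was level as deposited, at -0.010. The 5 ATPases were also all lower after centring, with a smaller median of -0.086. All 6 chaperones were also higher in the library labelled for Wnt5a than under lnc7831 knockdown, by a median of 0.46. There 49.3% of all genes tested were higher, and 60.4% of those averaging 20 FPKM or more. The 9 tested eIF3 genes, of a translation initiation complex fixed as a comparison, were likewise all lower under lnc7831 than under lnc3500 knockdown, with a median of -0.34. The 9 proliferation markers were instead all higher under lnc7831 knockdown, with a median of 0.39, and their part in the chaperone values was not tested. Limma called 0 of the 6 chaperones in either comparison of these single libraries. Against wild type the chaperones lay below the mean under lnc7831 knockdown after centring, 6 of 6 with a median of -0.39, where 49.6% of all genes tested did. As deposited 0 of 6 did, where 6.87% of all genes did.

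**Figure D3:**
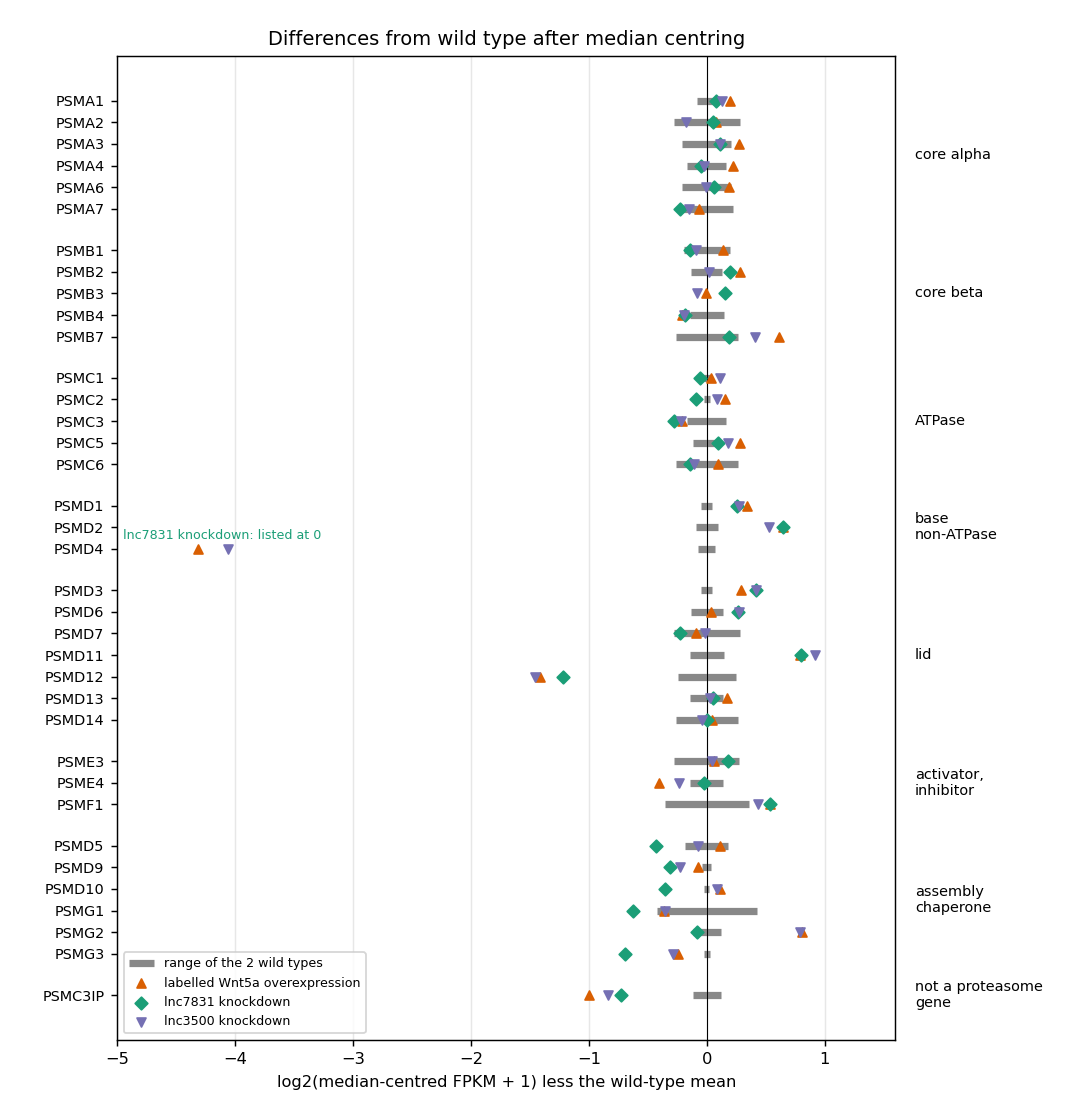
Difference from the wild-type mean of log2(median-centred FPKM + 1) for each member, with grey bars spanning the 2 wild-type libraries and 1 symbol for each treated library above 0. PSMD4 under lnc7831 knockdown is listed at 0 and has no symbol. Most members lie within 0.5 of zero, PSMD4 and PSMD12 lie far to the left, and PSMD11 lies farthest to the right in lnc3500 knockdown at 0.92.

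As a set, the proteasome genes lay close to the median gene in each treated library. Their median difference from wild type was 0.11 in the library labelled for Wnt5a, against 0.0013 for all genes tested. For genes averaging 20 FPKM or more it was 0.091, so the members lay near genes of like level. Of the 35 members, 28 lay within 0.5 log2 units of the wild-type mean. Under lnc7831 knockdown the member median was -0.025, with 28 within that distance. Under lnc3500 knockdown it was -0.0087, with 30 within it. The genes averaging 20 FPKM or more had medians of 0.0098 and 0.054 in these knockdowns. On equal totals 3 and 4 of 35 lay above the wild-type mean in the knockdowns, where 18.9% and 20.2% of all genes did. The middle range of the members was narrower than that of all genes, but so was that of each comparison complex described below. Their interquartile range was 0.35, 0.39 and 0.32 log2 units, against 0.58, 0.55 and 0.56 over all genes tested. Over the 3985 genes that averaged 20 FPKM or more it was 0.57, 0.56 and 0.57.

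Limma called 0 of the 35 in each comparison with wild type on centred values. Over all genes it called 0.00907%, 0.0363% and 0%. At an unadjusted p under 0.05 it took 2 of 35 in each, PSMD4 and PSMD12, where 4%, 3.04% and 3.08% of all genes passed. By size, 0 members were 2-fold or more above both wild types in any treated library, where 2.18%, 1.64% and 1.44% of all genes were. Members 2-fold or more below both numbered 2 in the library labelled for Wnt5a (PSMD4 and PSMD12), where 1.74% of all genes were. There was 1 under lnc7831 knockdown (PSMD4, listed at 0), where 1.33% of all genes were, and 2 under lnc3500 knockdown (PSMD4 and PSMD12), where 1.65% were. The 3 comparisons share the wild-type libraries, so their values are not independent.

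Counting members outside the wild-type range gave 16 above and 8 below in the library labelled for Wnt5a, where 31.8% of all genes lay above and 32.8% below. Under lnc7831 knockdown 8 lay above and 11 below, where the shares of all genes were 31% and 32.3%. Under lnc3500 knockdown 13 lay above and 8 below, where they were 31.9% and 32.2%. Of the 3985 genes averaging 20 FPKM or more, 1530, 1240 and 1479 lay above in the 3 libraries, and 942, 1237 and 1024 below. As deposited, 32 of 35 members exceeded both wild types in every treated library, where 76.5%, 84.6% and 80.2% of all genes did. So did 3415, 3490 and 3489 of the 3985. Among the members PSMD4, PSMD12 and PSMG1 were the exceptions. On that scale 3, 3 and 4 members were 2-fold or more above both wild types, where 8.2%, 10.5% and 8.17% of all genes were. PSMD4 was the 1 member 2-fold or more below both in each, where 0.988%, 0.707% and 0.789% of all genes were.

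Between the wild-type libraries most of these genes differed in 1 direction. After centring, 26 of 35 were lower in wild-type library 2 than in library 1, where 49.3% of all genes were lower and 50.5% higher. The median difference was -0.28, against 0.0055 for all genes tested. This was not particular to the proteasome genes. Of the comparison complexes described below, 7 of 8 COP9 signalosome genes were lower (median -0.39) and 4 of 5 CCT chaperonin genes (-0.49). Of the eIF3 genes 6 of 9 were lower, with a median of -0.07. With equal total FPKM 20 of 35 were lower, with a median of -0.018, where 31.2% of all genes were lower and the median gene was at 0.24. Core genes took part most evenly, with 10 of 11 lower and a median of -0.39, and all 6 tested alpha subunits were lower, at -0.17 to -0.56 and 5 of the 6 with equal totals. PSMA2 had 167 FPKM in library 1 and 118 in library 2. ATPase genes had a median of -0.05. PSMG1 differed most, at -0.85, and PSMF1 most in the other direction, at 0.72. No member was 2-fold apart, where 8.43% of all genes were at least 2-fold higher in library 2 and 3.66% at least 2-fold lower. In these libraries the 9 proliferation markers summed to 305 and 234 FPKM, with a median difference of -0.60 after centring, and their part in the difference was not tested. With pooled follicles, fewer cells of a type and less RNA per cell cannot be told apart.

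Each treated library therefore gave another median against each wild type. Set against wild-type library 1, the member median was -0.019 in the library labelled for Wnt5a, and set against library 2 it was 0.28. It was -0.15 and 0.12 under lnc7831 knockdown, and -0.18 and 0.14 under lnc3500 knockdown. The sign of the set median in each treated library turned on which wild type it was set against. After centring, PSMD4, PSMD12, PSMD2 and PSMD11 kept their sign against either wild-type library in every treated library. So did PSMD1, PSMD3 and PSMF1, which were higher, and PSMB4, PSMC3, PSMD9 and PSMG3, which were lower. As deposited, PSMB4, PSMC3, PSMD9 and PSMG3 were instead above both wild types in every treated library. With equal total FPKM, PSMD1 and PSMD3 were below the wild-type mean in both knockdowns, and PSMD2 and PSMF1 lay within the wild-type range.

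Between treated libraries the members were closer still. From lnc3500 knockdown to the library labelled for Wnt5a the interquartile range was 0.16 log2 units, against 0.32 for all genes. It was 0.098, 0.14 and 0.06 for the CCT, COP9 signalosome and eIF3 genes described below. Of the members 0 were 2-fold apart, where 0.761% of all genes were that much higher in the library labelled for Wnt5a and 0.988% lower. In this comparison 26 of 35 were higher in the library labelled for Wnt5a, where 52% of all genes were and 47.5% were lower. So were 10 of 11 core genes. Against lnc7831 knockdown, 27 of 35 were higher in the library labelled for Wnt5a, where 49.3% of all genes were, with a median of 0.12. As deposited 19 of 35 were higher with a median of 0.0061, and with equal total FPKM 35 of 35 were with a median of 0.74, where 37.9% and 87.2% of all genes were. Set against lnc3500 knockdown, 22 were higher as deposited and 35 with equal totals, where 46.6% and 93.1% of all genes were. Among the genes averaging 20 FPKM or more, 58.0% were higher than under lnc3500 knockdown and 60.4% than under lnc7831 knockdown after centring. Between lnc7831 and lnc3500 knockdown, 12 of 35 were higher in the former, where 50.3% of all genes and 42.4% of those averaging 20 FPKM or more were. As deposited 22 of 35 were higher, where 58.6% of all genes were, and with equal upper quartiles 18 were, where 55.2% of all genes were. The direction of the majority thus turned with scaling, but the member median stayed below that of all genes. It was -0.038 against 0.003 after centring, 0.040 against 0.075 as deposited and 0.0057 against 0.043 with equal upper quartiles. Set against genes averaging 20 FPKM or more, the order was the other way. Their median was -0.058 after centring and 0.019 as deposited, each below that of the members. Limma called 0 members in each of these 3 comparisons, where it called 0%, 0.0453% and 0.0272% of all genes in the same order. At an unadjusted p below 0.05 it took 0, 1 and 1 members, where 0.471%, 1.95% and 1.76% of all genes passed. The single one was PSMD4, which is listed at 0 under lnc7831 knockdown. It was also the 1 member past the 2-fold rule in each comparison with that library, higher in the library labelled for Wnt5a, where 2.86% of all genes were and 3.3% were lower. It was lower under lnc7831 than under lnc3500 knockdown, where 2.72% of all genes were and 3.26% were higher.

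The order of the members by level was much the same in all libraries. Across the 35 tested genes, Spearman's rho of FPKM was 0.960 between the wild types, 0.909 to 0.949 between a wild type and a treated library and 0.974 to 0.991 between treated libraries. Over all genes tested it was 0.908, 0.894 to 0.938 and 0.945 to 0.977. These are correlations across genes within 5 libraries, and genes are not replicates.

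Other genes of the ubiquitin and proteasome pathway, 24 tested outside the name rule, had median differences of 0.28, 0.062 and 0.23 from wild type. Limma called 0 of them, where it called 0.00907%, 0.0363% and 0% of all genes. Past the 2-fold rule were 0 of them, where 2.18%, 1.64% and 1.44% of all genes were higher and 1.74%, 1.33% and 1.65% lower. NFE2L1 (ENSGALG00000011937), the transcription factor of the subunit genes, had 32.7 and 56.9 FPKM in wild type. Its treated levels were 135, 161 and 128 FPKM, each above both wild types. After centring the differences were 1.03 (SE 0.49), 1.17 and 0.92, the highest of the list in the library labelled for Wnt5a and under lnc7831 knockdown. VCP (ENSGALG00000001986), the ATPase that extracts ubiquitinated proteins from complexes and membranes, had 61.0 and 53.2 FPKM in wild type and 177, 188 and 185 in the treated libraries. Its centred differences were 1.02 (SE 0.39), 0.999 and 1.05, with unadjusted p of 0.0645, 0.0686 and 0.0601 in limma. With equal total FPKM both genes were still higher than the wild-type mean in each treated library, NFE2L1 by 1.19, 0.70 and 0.48 and VCP by 1.18, 0.53 and 0.61. On that scale NFE2L1 under lnc3500 knockdown was about level with the higher wild type, so not clearly above both.

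The 6 shuttle and segregase genes tested, VCP included, were all above the wild-type mean in each treated library, where 50.1%, 50.4% and 49.7% of all genes tested were. Their medians were 0.44, 0.35 and 0.46. Of the 6, with equal totals, 1 was above the wild-type mean under lnc7831 and 3 under lnc3500 knockdown, where 18.9% and 20.2% of all genes were. Their medians on that scale were -0.11 and 0.027, against -0.42 and -0.39 for all genes tested. UBQLN4, a shuttle, had 13.3 and 22.0 FPKM in wild type and 35.0, 37.9 and 45.9 in the treated libraries. ADRM1, a ubiquitin receptor of the base that the name rule does not take, had 45.5 and 60.1 FPKM in wild type and 117, 126 and 99.8 in the treated libraries. Its differences were 0.55 (SE 0.40), 0.55 and 0.29, and the knockdowns were at 0.081 and -0.14 with equal totals. POMP, the maturation factor of the core, had 103 and 95.8 FPKM in wild type and 174, 191 and 155 in the treated libraries, with differences of 0.20 (SE 0.39), 0.22 and 0.0029, the knockdowns at -0.24 and -0.43 with equal totals. SHFM1, which encodes a small lid subunit, had 105 and 65.3 FPKM in wild type and 85.5, 85.1 and 86.4 in the treated libraries. It lay at -0.55 (SE 0.50), -0.67 and -0.57 after centring, at 0.041, 0.035 and 0.058 as deposited, and at -0.40, -1.14 and -1.01 with equal totals.

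**Figure D4:**
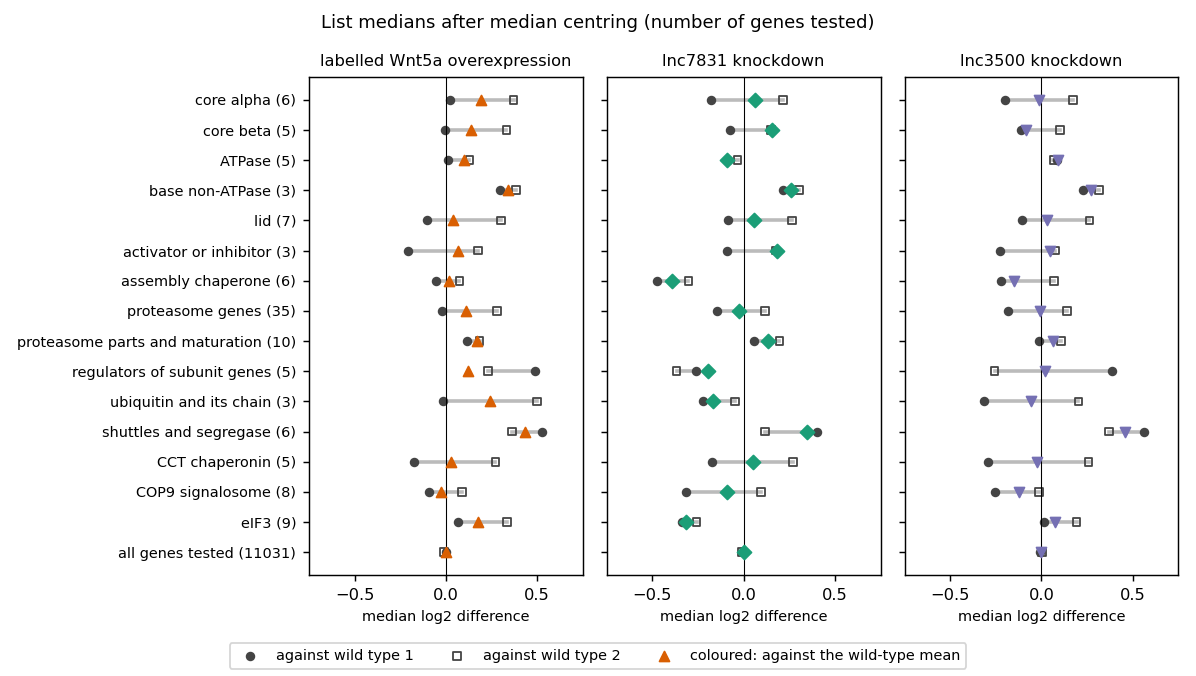
Median difference in log2(median-centred FPKM + 1) of each role and related list, with the number of genes tested in brackets, for the 3 treated libraries. Coloured symbols are against the wild-type mean and joined black symbols against each wild-type library alone. The shuttle and segregase genes lie to the right in all 3 panels (0.44, 0.35 and 0.46), and the assembly chaperones lie to the left in lnc7831 knockdown (-0.39). With equal total FPKM the shuttle median in lnc7831 knockdown was -0.11, where the median gene was at -0.42.

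Other large complexes gave a scale for these values. The lid has the same architecture as the COP9 signalosome and eIF3, and the CCT chaperonin is another complex whose rings are built of different, related subunits. Their medians were 0.03 for 5 CCT genes, -0.03 for 8 signalosome genes and 0.17 for 9 eIF3 genes in the library labelled for Wnt5a. They were 0.05, -0.09 and -0.31 under lnc7831 knockdown, and -0.03, -0.12 and 0.07 under lnc3500 knockdown. In the same order of complexes, the interquartile ranges were 0.19, 0.34 and 0.36 in the library labelled for Wnt5a. Under lnc7831 knockdown they were 0.15, 0.19 and 0.19, each narrower than the 0.39 of the proteasome genes. Under lnc3500 knockdown they were 0.25, 0.18 and 0.32. The 35 proteasome genes, at 0.11, -0.025 and -0.0087, lay between the lowest and the highest of these complexes in each library. No member of the 3 complexes was 2-fold above or below both wild types, where 1.44% to 2.18% of all genes were above and 1.33% to 1.74% below.

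PSMC3IP, the recombination factor, had 11.8 and 14.6 FPKM in wild type and 9.36, 12.5 and 10.9 in the treated libraries. Its centred differences were -1.0025 (SE 0.32), -0.73 and -0.84, below both wild types in each, with adjusted p = 1 in limma.

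The treated libraries also differed from wild type in markers of other cells. Epidermal markers summed to 1675 and 2752 FPKM in wild type and 7916, 6331 and 6954 in the treated libraries. Of the 10 tested, 10, 6 and 9 were above both wild types after centring, where 31.8%, 31% and 31.9% of all genes were. With equal total FPKM, 10, 5 and 9 were above the wild-type mean, where 63.6%, 18.9% and 20.2% of all genes were. Leukocyte markers, 10 found of 11, summed to 149 and 166 FPKM in wild type and 114, 159 and 90.3 in the treated libraries. After centring 9, 8 and 9 of the 10 were below both wild types, where 32.8%, 32.3% and 32.2% of all genes were. As deposited 8, 5 and 9 of them were below the wild-type mean, where 12.3%, 6.87% and 9.76% of all genes were. Of the leukocyte markers, 0 were listed at 0 in every library. The part of these cell types in the values of PSMD4, PSMD12, PSMD11, PSMD2 and the chaperones was not tested.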

How the data were processed

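Total RNA of 5 pooled follicles per library was sequenced by standard Illumina protocols, per the labels. The authors deposited FPKM for 17108 Ensembl gene identifiers, made, per the submitters' processing notes, with Cufflinks 2.2.1 and TopHat2 2.1.0 among the tools and galGal4 as the build. The use of strand and any scaling between libraries are not given in the sources used here. Without counts the depth of each library is unknown, and the precision of low values cannot be stated.

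Libraries were median-centred by size factors (0.751 and 0.784 in wild type, then 1.16, 1.26 and 1.19 for the Wnt5a, lnc7831 and lnc3500 libraries). A pseudocount of 1 came before log2, so that low genes give smaller folds. All 5 libraries entered 1 two-sided limma fit with trend (limma 3.58.1, R 4.3.3) over genes averaging 1 FPKM or more, with 1 residual and 2.70 prior degrees of freedom and a threshold of 0.05. The step was run on simulated data with known changes, where only the size of the estimates was checked. How often limma called a change of a given size is not given here. The rule of size took genes 2-fold or more beyond both wild types.

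Members and lists were chosen with earlier results of these data known. Named were PSMB7, PSMD4, PSMD14, PSME3, PSME4, PSMF1, the highest and lowest of each role, members past the size rule and the 3 largest in each direction, and NFE2L1, POMP and ADRM1 of the related genes. VCP, UBQLN4, SHFM1, PSMD3 and the other members were added after their values were seen. Scaling, pseudocount, filter, trend and each wild-type library were varied.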

Additional observations from a re-analysis of the deposited data

How the results depend on the processing

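Scaling moved the set most. As deposited, the member median against wild type was 0.69 in Wnt5a overexpression as labelled, 0.66 in lnc7831 and 0.62 in lnc3500 knockdown. There 3, 3 and 4 members were at least 2-fold higher and, in the first and last, 1 at least 2-fold lower, and PSME4 (0.11), PSMG3 (0.011) and PSMG1 (0.26) reversed in that order. Limma then called 0 genes in the first comparison. With equal total FPKM the medians were -0.46 and -0.45 in the knockdowns, 0.74 and 0.66 for Wnt5a overexpression against lnc7831 and lnc3500, and -0.018 between wild types. Then 3 members were 2-fold lower in lnc7831 knockdown, where the median gene was at -0.42. In Wnt5a overexpression 6 were 2-fold higher than in lnc7831 knockdown, where the median gene was at 0.55 and 87.2% of all genes were higher. The shares of all genes past the 2-fold rule on this scale are not given here, so these counts are not read as a result about the members. The calls between treated libraries were 0 (lnc7831 less lnc3500), 2 and 1. With equal upper quartiles limma called 4, 8 and 2 genes against wild type, among them 1 member (PSMD4 in lnc7831 knockdown), and 2 between Wnt5a overexpression and lnc3500.

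With a pseudocount of 0.1 limma called 0 genes in Wnt5a overexpression and lnc7831 knockdown against wild type and 0 in both other comparisons of lnc7831 knockdown, in which 2 members were 2-fold below wild type. With 5, 1 member was 2-fold lower in Wnt5a overexpression, 0 differed 2-fold between lnc7831 knockdown and either other treated library, and 1 gene was called between Wnt5a overexpression and lnc3500. Without a filter limma called 183, 260 and 132 genes against wild type and 285 (lnc7831 less lnc3500), 335 and 234 between treated libraries, 0 of them members. A filter at 5 FPKM called 1 between Wnt5a overexpression and lnc3500, and limma without trend 1 there and 1 between the knockdowns.

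Leaving out a wild-type library leaves no residual degree of freedom and so no test. The member medians were then -0.02 to 0.28, -0.15 to 0.12 and -0.18 to 0.14. In lnc7831 knockdown 1 to 3 members were 2-fold lower and in lnc3500 knockdown 0 to 1 higher, with 3 and 1 without wild-type library 2. The shares of all genes past the 2-fold rule with a wild type left out, or with the other pseudocounts, are not given here. PSMG1 in lnc3500 knockdown was -0.78 to 0.071, reversing without wild-type library 1. The cause was not tested. No paired analysis was possible because only wild type has more than 1 library. Depth is unknown, so low values cannot be bounded.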

Other observations

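Of the genes beside PSMD12, NOL11 (a nucleolar factor of ribosome production) was also lower in the treated libraries. The neighbours, chosen after the values were seen, are the nearest protein-coding genes on each side in RefSeq on assembly GRCg7b, which is used only for order because the deposited table was made on galGal4. One NOL11 entry, ENSGALG00000003650, had 7.73 and 5.40 FPKM in wild type, 0.143 and 0.198 in the lnc7831 and lnc3500 knockdowns, and was listed at 0 in the library labelled for Wnt5a. The other, ENSGALG00000028883, had 3.46 and 2.61 FPKM in wild type and 0.270, 0.304 and 0.490 in the treated libraries, with that labelled for Wnt5a first. PITPNC1, between NOL11 and PSMD12, had 0.471 and 1.02 FPKM in wild type and was at or below 0.189 in the treated libraries. On the other side of PSMD12, the nearest gene HELZ was not analysed here, and both CACNG1 entries were at or below 0.0607 FPKM in every library. Reads can be shared between entries of 1 name, so the NOL11 levels are uncertain.

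Beside PSMD4, PIP5K1A (a phosphoinositide kinase) had 5.44 and 3.65 FPKM in wild type and 3.11, 3.14 and 2.79 in the same order of treated libraries. On the other side ZNF687 had 2.31 and 7.91 FPKM in wild type and 10.3, 11.8 and 13.0 in the treated libraries. The next genes outward, VPS72 and PI4KB, were at 53.7 and 95.6 and at 13.6 and 29.5 FPKM in wild type. In the treated libraries they were at 70.4, 122 and 82.6 and at 41.1, 42.4 and 40.2 FPKM.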
